A study of Sus scrofa with 11 samples.

Results

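The enzymes that remove superoxide, hydrogen peroxide and lipid peroxides were read in the *M. semimembranosus*, a large hind leg muscle, of gilts fed a low protein (LP) or a high protein (HP) diet. They were 10 genes: the glutathione peroxidases GPX1, GPX3 and GPX4, the superoxide dismutases SOD1, SOD2 and SOD3, catalase (CAT) and the peroxiredoxins PRDX2, PRDX3 and PRDX6. All probe sets that the platform annotation gives to exactly 1 of these symbols were used, and this covered 10 of the 10 genes with 11 of the 23999 probe sets on the array, GPX4 having 2. The rule uses gene symbols and no measured value.

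The animals were 11 purebred Duroc gilts, 5 on the LP and 6 on the HP diet, about 10 weeks old at the start and kept on the diet for 63 days. Crude protein made up 128 g/kg of the LP feed, with lysine at 7 g/kg. In the HP feed the values were 217 g/kg for protein and 13 g/kg for lysine. Both were isocaloric, and synthetic amino acids held threonine, tryptophan and the sulphur amino acids at the same proportion to lysine on both. Sulphur amino acids and lysine were thus lower together on the LP diet. RNA of each pig was amplified and put on an Affymetrix Porcine Genome array of its own, and levels are expression values on a log2 scale, on which a difference of 1 is a 2-fold change. The pigs were blocked on initial weight and penned in 2 groups. Block, pen and slaughter date are not given per pig, so any effect of these cannot be told apart from that of the diet.

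Superoxide, formed as electrons leak from the respiratory chain and from NADPH oxidases, is converted to hydrogen peroxide by the superoxide dismutases. Catalase, the glutathione peroxidases and the peroxiredoxins then reduce the peroxide, the glutathione peroxidases with electrons from glutathione and most peroxiredoxins with electrons from thioredoxin. GPX1, GPX3 and GPX4 carry selenocysteine in the active site. In muscle these enzymes meet the peroxide made by mitochondria and during contraction.

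On the LP diet the level of GPX3 was lower and that of no other member gene differed past the threshold, an unadjusted limma p of 0.05 or less. Thus 1 of the 11 probe sets was called lower and 0 higher, where over all 23999 probe sets 2.97% were called lower and 2.15% higher (5.11% in all). The LP mean was below the HP mean for 9 of the 11, against 52.6% of all probe sets, and the median difference (LP minus HP) was -0.14, against -0.02 over all. After Benjamini-Hochberg adjustment over all probe sets 0 were under 0.05 (smallest adjusted p 0.644 in limma), although 1227 had an unadjusted p of 0.05 or less. All calls named here are therefore calls on unadjusted p values. In whole muscle, fewer cells of a type and less RNA per cell cannot be told apart.

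All 11 arrays had the same median, 6.72, and between 74.9% and 85.3% of probe sets were above background, which was set at the highest of 23 negative controls on each array. The hybridisation spike-ins, controls added in equal amounts at the hybridisation step, averaged 11.43 to 11.77 on LP arrays and 11.30 to 12.22 on HP arrays. The means of the diets differed by -0.26 (exact permutation p = 0.186). The spike-in mean named below is that of these controls. The poly-A spike-ins, a separate set of controls, averaged 8.31 to 8.93 on LP and 8.26 to 8.83 on HP arrays. Their diet means differed by 0.09 (exact permutation p = 0.539), and their relation to the enzyme levels was not tested. The 3' minus 5' level of the actin controls, a measure of RNA integrity, was lowest on LP 1 and highest on HP 4. It was 5.12 to 5.93 on LP and 5.38 to 6.46 on HP arrays. The means of the diets differed by -0.43 for actin (exact permutation p = 0.123) and by -0.09 for GAPDH (exact permutation p = 0.227). The relation of this measure to the enzyme levels was not tested. Of 15 skeletal muscle fibre markers 13 were measured and all 13 were above background on every array.

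**Figure D1:**
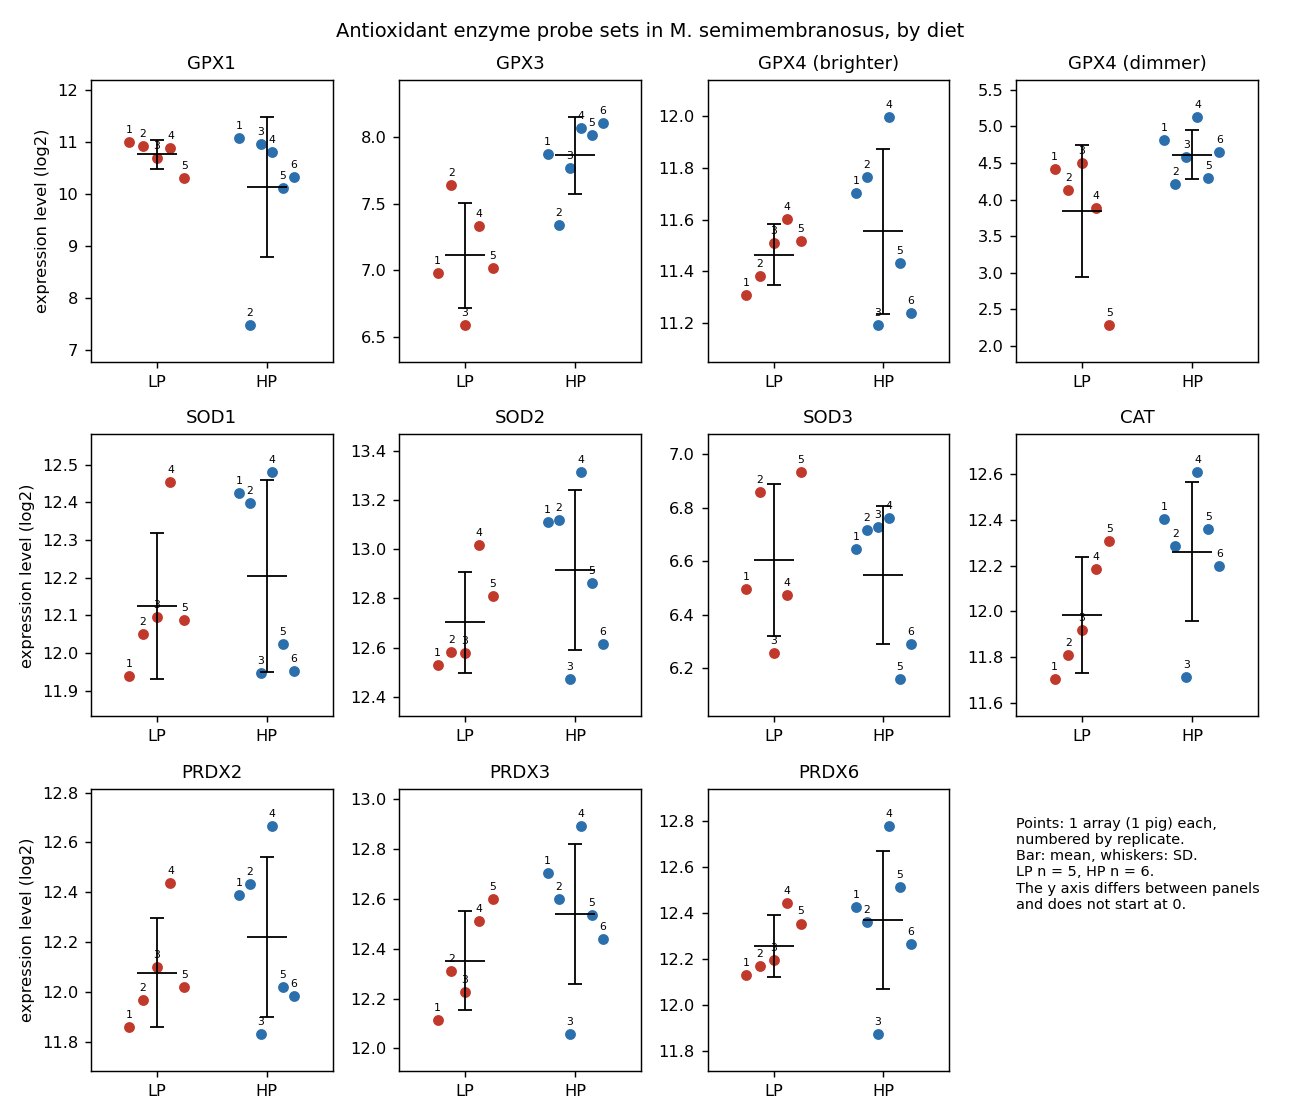
Expression level (log2) of the 11 antioxidant enzyme probe sets on each array, LP left and HP right, with replicate numbers, group mean and SD (LP n = 5, HP n = 6); the axes differ between panels and do not start at 0. GPX3 has 4 of 5 LP pigs below the lowest HP pig, GPX1 has a single low HP pig at 7.49, and the 7 brightest probe sets peak on HP 4.

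GPX3 (Entrez gene 396598) encodes the glutathione peroxidase secreted into plasma and extracellular fluid. The 5 LP pigs had levels of 6.98, 7.64, 6.59, 7.33 and 7.01, against 7.87, 7.34, 7.77, 8.07, 8.02 and 8.11 in the 6 HP pigs. Thus 4 of the 5 LP pigs were below the lowest HP pig and 5 of the 6 HP pigs were above the highest LP pig. The diets overlapped only through LP 2 and HP 2, and there was no probe set of the 11 in which they did not overlap (0.579% of all probe sets).

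The mean was 7.11 ± 0.40 in LP and 7.86 ± 0.29 in HP pigs (SD, n = 5 and 6), a difference of -0.75 (SE 0.20, 95% interval -1.20 to -0.30), so that HP pigs were 1.68-fold higher. The limma p was 0.00377 and the exact permutation p 0.00866, while the adjusted p over all probe sets was 0.768. In order of p it stood at place 115 of 23999. All 11 arrays were above background for it. It remained called under all 20 alternatives that were run, with differences of -0.88 to -0.62 and p values of 0.00106 to 0.0296. GPX3 is also among the genes that the study called on the same pigs, so this value is not a second, independent observation.

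GPX1 (Entrez gene 397403) encodes the abundant glutathione peroxidase of the cytosol and mitochondria. Its levels were 11.003, 10.93, 10.71, 10.88 and 10.32 in LP pigs, and 11.09, 7.49, 10.97, 10.82, 10.12 and 10.33 in HP pigs. Apart from HP 2, all pigs of both diets lay in one range. HP 2 was 2.64 below the next array.

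The LP minus HP difference of GPX1 was 0.63 (SE 0.57, interval -0.63 to 1.89, limma p = 0.292, exact permutation p = 0.413). Without HP 2 it was 0.10 (SE 0.22, limma p = 0.655, exact permutation p = 0.706), with means of 10.77 ± 0.27 in LP and 10.67 ± 0.42 in HP pigs (SD, n = 5 each). The sign of the difference stayed positive, but its size rested on this 1 pig. Among 12000 probe sets with a mean above the median, 13 had 1 array at least as far below all the others, and GPX1 was the only 1 of these on HP 2.

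GPX4 (Entrez gene 399537) encodes the glutathione peroxidase that reduces lipid peroxides within membranes. Its brighter probe set read 11.31, 11.38, 11.51, 11.60 and 11.52 in LP pigs, and 11.70, 11.76, 11.19, 12.00, 11.43 and 11.24 in HP pigs. The LP pigs lay within the HP range, and the difference was -0.09 (SE 0.16, interval -0.45 to 0.26, limma p = 0.585, exact permutation p = 0.567).

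The dimmer GPX4 probe set read 4.41, 4.14, 4.50, 3.88 and 2.29 in LP pigs, against 4.82, 4.21, 4.58, 5.13, 4.29 and 4.65 in HP pigs. LP 5 was below background there and the other 10 arrays were above it. The difference was -0.77 (SE 0.37) and fell on either side of 0.05 by test, with a limma p of 0.0613 and an exact permutation p of 0.0346. Without LP 5 it was -0.38 (SE 0.21, limma p = 0.0948, exact permutation p = 0.105), so the 2 probe sets of GPX4 did not give the same picture and the larger value rested in good part on 1 array near background.

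SOD1 (Entrez gene 397036) encodes the copper and zinc enzyme of the cytosol. It read 11.94, 12.05, 12.10, 12.45 and 12.09 in LP pigs, against 12.43, 12.40, 11.95, 12.48, 12.02 and 11.95 in HP pigs. The HP pigs fell into a higher and a lower set of 3, which together spanned nearly the whole LP range. The difference was -0.08 (SE 0.15, interval -0.41 to 0.25, limma p = 0.610, exact permutation p = 0.552).

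SOD2 (Entrez gene 100154319) encodes the manganese enzyme of the mitochondrial matrix, the compartment where the respiratory chain releases superoxide. Its levels were 12.53, 12.58, 12.58, 13.02 and 12.81 in LP pigs, and 13.11, 13.12, 12.47, 13.32, 12.86 and 12.62 in HP pigs. HP 1, HP 2 and HP 4 were above every LP pig and HP 3 was below every LP pig. The difference of -0.21 (SE 0.17, interval -0.60 to 0.17, limma p = 0.247, exact permutation p = 0.229) did not pass.

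SOD3 (Entrez gene 780439) encodes the secreted copper and zinc enzyme that binds to the extracellular matrix, so with GPX3 it is the other extracellular enzyme of the list. It read 6.50, 6.86, 6.26, 6.47 and 6.93 in LP pigs, and 6.64, 6.72, 6.73, 6.76, 6.16 and 6.29 in HP pigs. The diets overlapped almost fully, with a difference of 0.05 (SE 0.17, interval -0.32 to 0.43, limma p = 0.755, exact permutation p = 0.747). Its sign changed with 1 pig, being -0.01 without LP 2, -0.03 without LP 5 and -0.02 without HP 5.

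Catalase (CAT, Entrez gene 397568), the haem enzyme of peroxisomes that splits hydrogen peroxide to water and oxygen, read 11.70, 11.81, 11.92, 12.19 and 12.31 in LP pigs, against 12.40, 12.29, 11.71, 12.61, 12.36 and 12.20 in HP pigs. Apart from HP 3, every HP pig was above 4 of the 5 LP pigs. The difference was -0.28 (SE 0.18, interval -0.67 to 0.11) with a limma p of 0.145 and an exact permutation p of 0.134. Without HP 3 it became -0.39 (SE 0.15) and passed, with a limma p of 0.0256 and an exact permutation p of 0.0317.

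PRDX2 (Entrez gene 100512521), an abundant cytosolic peroxiredoxin, read 11.86, 11.97, 12.10, 12.44 and 12.02 in LP pigs, against 12.39, 12.43, 11.83, 12.67, 12.02 and 11.98 in HP pigs. PRDX3 (Entrez gene 100154143), the peroxiredoxin of mitochondria, read 12.12, 12.31, 12.23, 12.51 and 12.60 in LP pigs, against 12.70, 12.60, 12.06, 12.89, 12.54 and 12.44 in HP pigs. PRDX6 (Entrez gene 399538), which has a single active cysteine, takes its electrons from glutathione and also acts as a phospholipase, read 12.13, 12.17, 12.19, 12.44 and 12.35 in LP pigs, against 12.42, 12.36, 11.87, 12.78, 12.51 and 12.26 in HP pigs. In all 3 the highest array was HP 4 and the lowest HP 3, so that the HP pigs spanned the whole LP range.

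The differences were -0.14 (SE 0.18, interval -0.53 to 0.24, limma p = 0.432, exact permutation p = 0.433) for PRDX2, -0.19 (SE 0.16, interval -0.54 to 0.17, limma p = 0.270, exact permutation p = 0.247) for PRDX3 and -0.11 (SE 0.16, interval -0.45 to 0.23, limma p = 0.488, exact permutation p = 0.470) for PRDX6. None passed the threshold. The intervals leave room for falls or rises of this order and do not show that the levels were alike.

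**Figure D2:**
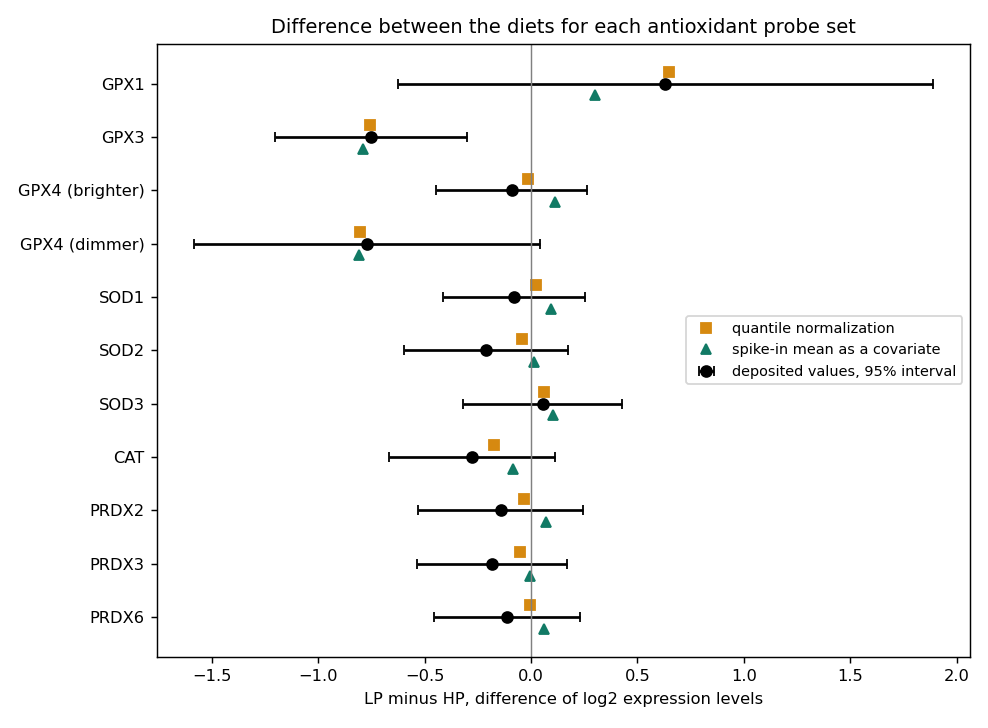
Difference of log2 levels, LP minus HP, for each of the 11 probe sets: points and bars give the deposited values with their 95% interval, squares the quantile normalised values and triangles the fit with the spike-in mean as a covariate. GPX3 lies at -0.75 with an interval that stops short of 0, and the bright probe sets move towards or past 0 under both alternatives.

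The 7 bright probe sets, those of SOD1, SOD2, CAT, PRDX2, PRDX3 and PRDX6 and the brighter one of GPX4, had means in the top 10% of all probe sets (10.8 or more) and moved together from array to array. All 7 were highest on HP 4, which was the highest array for 53.9% of the 2400 probe sets in that range. HP 3 was the lowest for GPX4, SOD2 and the 3 peroxiredoxins, and LP 1 for SOD1 and CAT. All 7 differences were below 0, from -0.28 to -0.08 with a median of -0.14, and 0 were called. Over all 2400 75.2% were below 0, with a median of -0.09, and 2.04% were called.

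The mean level of the 7 followed the spike-in mean. It was 11.94 to 12.38 in LP pigs and 11.87 to 12.68 in HP pigs, a difference of -0.16 (exact permutation p = 0.299). With each diet's mean taken off, the level of each of the 7 rose with the spike-in mean over the 11 arrays, with Pearson r of 0.787 (CAT) to 0.952 (SOD2) and Spearman rho of 0.818 to 0.973 (permutation p at most 0.00394, 11 relations tested, adjusted p at most 0.00619, the smallest p that these permutations can give being 1e-05). Without HP 3 and HP 6, the 2 arrays whose spike-in values were farthest from the median once the diet means were taken off, r was 0.698 to 0.922. Within LP pigs alone it was 0.812 to 0.974 and within HP pigs 0.815 to 0.977.

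GPX3 and the other members did not show this relation. For GPX3 r was -0.14 (permutation p = 0.689) and rho -0.13 (permutation p = 0.713), for GPX1 r was -0.38 (permutation p = 0.265), for SOD3 0.20 and for the dimmer GPX4 probe set -0.07. What the shared movement of the bright probe sets comes from was not tested.

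**Figure D3:**
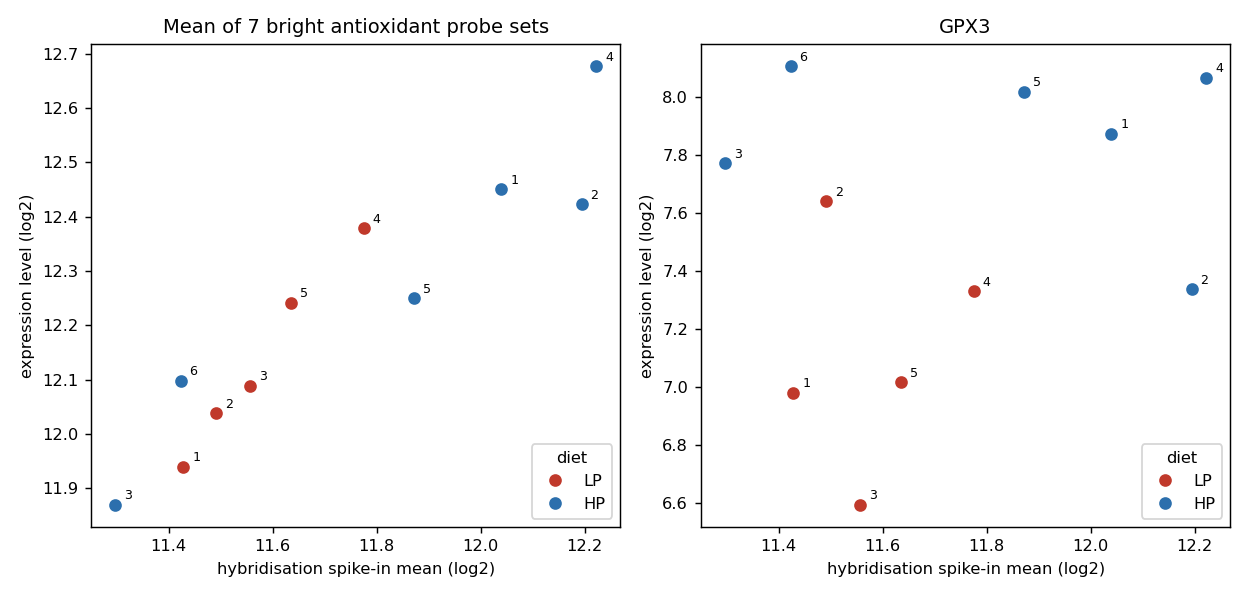
Level (log2) of the mean of the 7 bright antioxidant probe sets (left) and of GPX3 (right) against the mean of the hybridisation spike-ins (log2), 1 point per array with its replicate number. The bright probe sets run from 11.87 on HP 3 to 12.68 on HP 4 along the spike-in mean, while GPX3 shows no such order.

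Under alternatives that rescale the arrays, these 7 differences moved while GPX3 stayed called. After quantile normalization 6 of the 7 were still below 0, but from -0.18 to 0.02 with a median of -0.04, and SOD1 changed sign. Of all 11, 8 were below 0 and 1 was called lower then, against 49.6% and 3.38% of all probe sets. With the spike-in mean as a covariate only 4 of the 11 probe sets were below 0, and the median over the 11 was 0.06, against 0.03 over all probe sets. GPX3 was at -0.76 after quantile normalization and at -0.79 with the covariate, and was called under both. Leaving out HP 1, HP 2 and HP 4, the arrays with the highest spike-in means, put it at -0.85, still called, and left 3 of the 11 below 0.

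Around the 10 enzymes stand 8 lists of genes for other family members, glutathione, thioredoxin, selenium, metals and the sources of peroxide. Of 161 genes listed 101 were measured, each read by the brightest of its probe sets. LP was lower for 6 of these and higher for 1, against 3.16% called lower and 1.57% called higher over the 6765 genes (4.73% in all). This share of 6 in 101 moved with single pigs. It fell to 1 without LP 1 or without HP 4, to 2 without LP 2 and to 3 without LP 3. Without HP 3 it rose to 9. Over all probe sets, the share called in both directions together was 4.65% without LP 1, 4.44% without LP 2 and 4.58% without LP 3. It was 6.34% without HP 3 and 6.12% without HP 4, so the fall without HP 4 did not go with fewer calls over all probe sets. The counts from the lists are of lower calls alone.

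Of 9 other family members 8 were measured and 0 were called, with a median difference of -0.04, as over all genes. Of these 8, GPX5 and GPX6 are, like GPX3, among the genes that the study called lower in LP on the same pigs. GPX5 had a difference of 0.03 (SE 0.27, limma p = 0.918, exact permutation p = 0.922), and GPX6 was above background in 0 of 5 LP and 2 of 6 HP pigs. PRDX1, a cytosolic peroxiredoxin, read 11.74, 10.64, 10.46, 11.54 and 11.44 in LP pigs against 10.73, 10.98, 10.57, 10.92, 10.69 and 10.88 in HP pigs. Thus 3 LP pigs were above the HP range, LP 2 was within it and LP 3 below it. The difference was 0.37 (SE 0.24, limma p = 0.147, exact permutation p = 0.165). Of all alternatives PRDX1 passed only without LP 3 (0.54).

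Among 24 genes of glutathione synthesis and recycling 16 were measured, 0 were higher and 2 lower. GLRX, the cytosolic glutaredoxin that uses glutathione to reduce mixed disulphides, read 9.45, 9.16, 9.30, 9.53 and 9.36 in LP pigs, against 9.57, 9.55, 9.52, 10.07, 10.02 and 9.78 in HP pigs. The diets overlapped by LP 4 and HP 3 alone, and the difference was -0.39 (SE 0.14, limma p = 0.0186, exact permutation p = 0.0152). It lost the call when LP 2 was left out (-0.34). The dimmer GLRX probe set was not called, at -0.12 (SE 0.20, limma p = 0.560, exact permutation p = 0.580).

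SLC1A1, a transporter that takes up glutamate and cysteine, was near background, at 3.51 ± 0.37 in LP and 3.93 ± 0.20 in HP pigs (SD). Its difference was -0.42 (SE 0.18, limma p = 0.0391, exact permutation p = 0.0433). A dimmer probe set of the gene, above background in 2 LP pigs and 1 HP pig, went the opposite way at 1.56 (SE 0.56, limma p = 0.0186, exact permutation p = 0.0411), so no direction for the gene can be given. Of 18 glutathione S-transferases 9 were measured, and GSTA4, which conjugates the lipid peroxidation product 4-hydroxynonenal to glutathione, was the 1 called, at 7.61 ± 0.48 in LP and 8.29 ± 0.51 in HP pigs. The difference was -0.68 (SE 0.28, limma p = 0.0365, exact permutation p = 0.0519).

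Of 17 genes of the thioredoxin system 12 were measured, 0 were higher and 1 was lower. This was SESN1, a sestrin induced by stress that also takes part in amino acid signalling, at 12.50, 12.52, 12.54, 12.79 and 12.73 in LP pigs, against 13.12, 13.17, 12.47, 13.31, 13.11 and 12.78 in HP pigs. HP 3 was below every LP pig and 4 of the 6 HP pigs were above every LP pig. Its difference was -0.38 (SE 0.16, limma p = 0.0393, exact permutation p = 0.0476), and a dimmer probe set gave -0.43 (SE 0.14, limma p = 0.00981). SESN1, too, is among the genes that the study called lower on the same pigs.

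The list of selenoprotein synthesis and other selenoproteins had 15 of 23 genes measured, 0 higher and 2 lower, with a median of -0.03. SELENOP, the plasma protein that carries selenium to tissues, read 11.58, 11.47, 11.39, 11.58 and 11.74 in LP pigs, against 11.94, 11.88, 11.51, 12.12, 11.68 and 11.90 in HP pigs. Here 4 of the 6 HP pigs were above every LP pig. The difference was -0.29 (SE 0.13, limma p = 0.0483, exact permutation p = 0.0325). DIO2, the deiodinase that activates thyroid hormone, was above background in 1 of 5 LP and 5 of 6 HP pigs, and its difference was -1.80 (SE 0.69, limma p = 0.0241, exact permutation p = 0.0390).

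These list calls were less stable than that of GPX3 when single pigs were left out. SELENOP did not pass without LP 1, 2, 3 or 4 or without HP 1, 2, 4 or 6 (-0.29 to -0.23). SESN1 did not pass without LP 1, 2 or 3 or without HP 1, 2, 4 or 5 (-0.36 to -0.31), GSTA4 without LP 1, 2, 4 or 5 or without HP 3, 4, 5 or 6 (-0.68 to -0.57), SLC1A1 without LP 1, 3 or 5 or without HP 3, 4, 5 or 6 (-0.43 to -0.32), and DIO2 without LP 1, 3 or 4 or without HP 4 (-1.65 to -1.56).

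The rescaling that moved the bright enzymes also moved the bright genes of these lists. SESN1 was at -0.22 and still called after quantile normalization, but at -0.17 with the spike-in covariate and at -0.17 without HP 1, 2 and 4, and lost the call under both. SELENOP was at -0.21 and still called after quantile normalization, but at -0.19 with the covariate and at -0.15 without those 3 arrays, and again lost the call under both. DIO2, near background, fell to -0.65 and lost the call when low values were raised to the 20th percentile, and it also lost the call with the covariate (-1.80). SLC1A1 lost it with the covariate (-0.38), with array weights (-0.35), with the trended prior (-0.42) and without HP 1, 2 and 4 (-0.44), and GSTA4 with array weights (-0.56).

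**Figure D4:**
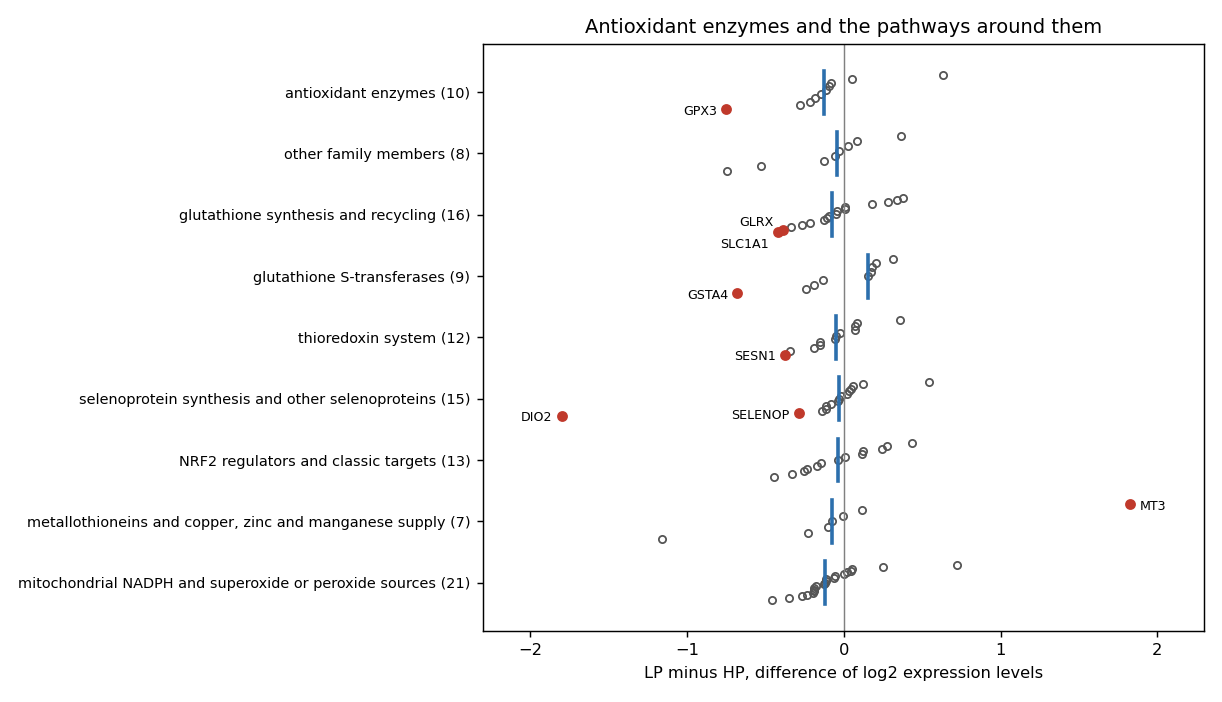
Difference of log2 levels, LP minus HP, of each measured gene of the 10 antioxidant enzymes and of 8 lists around them, with the number measured in brackets; filled points passed an unadjusted p of 0.05 and the bar is the list's median. GPX3 and 6 list genes lie to the left among the called, and MT3 alone to the right.

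The remaining lists held few calls. Of 24 regulators and targets of NRF2, the transcription factor of the antioxidant response, 13 were measured and 0 called, with a median of -0.03. Of 30 genes for mitochondrial NADPH and for sources of superoxide or peroxide 21 were measured and 0 called, 16 of them below 0 (57.5% over all genes) with a median of -0.12. Of 16 metallothioneins and genes of copper, zinc and manganese supply 7 were measured, and MT3, a metallothionein, was higher in LP at 1.83 (SE 0.65, limma p = 0.0173, exact permutation p = 0.0519), though it was above background in only 3 of 5 LP and 1 of 6 HP pigs. MT3 lost the call with the spike-in covariate (1.38) and without HP 1, 2 and 4 (1.06).

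Markers of other cells in the sample were read beside GPX3. Of the red blood cell markers 3 of 9 were measured, 0 were called, and their mean level was 3.91 to 5.27 in LP and 4.12 to 4.93 in HP pigs, AHSP being below background on every array. Adipocyte markers had 8 of 10 measured, 0 called, 4 above 0 and 4 below, and a median of 0.03. Their mean levels were 6.96 to 7.49 in LP and 6.40 to 7.53 in HP pigs. LEP, on this list, is among the genes that the study called higher in LP on the same pigs. It did not pass in the main fit, but passed at 0.74 with low values raised and with the trended prior. It also passed without LP 3 (1.01), HP 4 (0.86) or HP 6 (0.82). Macrophage markers had 6 of 10 measured, 0 called and all 6 below 0, with a median of -0.31 and mean levels of 6.92 to 7.79 in LP and 6.88 to 8.22 in HP pigs. Fibroblast markers had 7 of 9 measured, 0 called and 6 below 0, with a median of -0.28 and mean levels of 9.61 to 9.97 in LP and 9.77 to 10.39 in HP pigs (exact permutation p = 0.0519). DCN and COL3A1, both on this list, are among the genes that the study called lower on the same pigs. FAP passed with the spike-in covariate (-0.46), without dim probe sets (-0.33), with low values raised, with the trended prior and with array weights (-0.34). It also passed without HP 4 (-0.42) and without HP 1, 2 and 4 (-0.44). DCN passed at -0.28 without dim probe sets, with low values raised and with the trended prior. THY1 passed with the covariate (-0.81), and DCN (-0.37), FBN1 (-0.34) and THY1 (-0.64) without HP 5.

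Endothelial markers had 8 of 8 measured, 0 called and a median of -0.08. Of 8 smooth muscle and pericyte markers 6 were measured, 4 below 0 and 2 above, with a median of -0.14. Their mean level differed by -0.13 (exact permutation p = 0.271). The 1 called was RGS5, a pericyte gene, at 10.14 ± 0.18 in LP and 10.58 ± 0.21 in HP pigs (difference -0.44, SE 0.14, limma p = 0.00804, exact permutation p = 0.00866). Of 10 lymphocyte markers 8 were measured, 5 above 0 and 3 below, with a median of 0.18. The 1 called, CD79B, was lower in LP but below background on every array. All 13 muscle fibre markers were below 0, with a median of -0.25 that became -0.0035 after quantile normalization, and CA3, a muscle carbonic anhydrase, was called (-0.34, limma p = 0.0490, exact permutation p = 0.0476). The study also called CA3 lower, on the same pigs. CA3 lost the call without any 1 of the pigs other than HP 3 (-0.37 to -0.28), and also after quantile normalization (-0.15), with the spike-in covariate (-0.15) and without HP 1, 2 and 4 (-0.15). RGS5 lost it without HP 1, 2 and 4 (-0.37). The part of these cells in the GPX3 result was not tested.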

How the data were processed

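RNA of 11 pigs was measured on 1 array each, and pigs were grouped by the diet in their labels. Each deposited value is a log2 expression level of 1 probe set, as the authors made it. Their own comparison used puma, and how the levels were corrected for background and normalized is not given in the sources used here. No depth applies to arrays, and their number limits the precision. Of 24123 rows, 124 controls were left out and 23999 probe sets tested, 10069 of them with a single gene symbol in the platform annotation. Sequences and genome positions were not used here.

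LP minus HP was fitted for all probe sets in R 4.3.3 with limma 3.58.1 (constant prior, two-sided), called at an unadjusted p of 0.05, the study's threshold. It was tested on simulated data with 200 changed probe sets. Exact permutation tests over 462 splits and correlations with 100000 random orders (two-sided) were run in Python 3.11.15 with scipy 1.17.1. All probe sets of the 10 genes are named, and of each other list the genes past the threshold by their brightest probe set, with dimmer ones where they disagree. PRDX1, GPX2, GPX5, GPX6, NQO1, MSRB1, AHSP, LEP, ESAM, DCN, COL3A1, FAP, FBN1 and THY1 were named outside that rule, after their values were seen. The members and lists were chosen with earlier results of these data known. Alternatives were quantile normalization, the spike-in mean as a covariate, dim probe sets left out, low values raised to the 20th percentile, a trended robust prior, array weights, a replicate block, each pig left out, HP 1, 2 and 4 left out, and the exact permutation test.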

Additional observations from a re-analysis of the deposited data

Results flagged for a closer look

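A test for a sample far from the others of its diet was run on the 11 probe sets in each diet, 22 groups in all, and chance alone flags about 1 in 20 groups. GPX1 on HP 2, at 7.49, was 2.64 below the next HP pig at 10.12 (ratio of gap to range 0.732, critical value 0.625 for 6 pigs). The dimmer GPX4 probe set on LP 5, at 2.29, was 1.59 below the next LP pig at 3.88 (ratio 0.719, critical value 0.71 for 5 pigs), and it was below background there. Neither flag was in GPX3.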

How the results depend on the processing

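Over the 11 probe sets, 198 of 218 values under the alternatives kept their direction and side of the threshold, 5 passed it newly and 15 changed sign. GPX3 kept both in all. The count of antioxidant probe sets lower in LP, 1, was 2 with low values raised and 2 by the exact permutation test, where the dimmer GPX4 probe set was the second, and 1 to 2 with single pigs left out. It was 2 without LP 1 (dimmer GPX4, -0.91), LP 3 (dimmer GPX4, -0.93) or HP 3 (CAT, -0.39). The count higher in LP was 0 throughout. The sign turned with the spike-in covariate for GPX4 (brighter, 0.11), SOD1 (0.092), SOD2 (0.014), PRDX2 (0.071) and PRDX6 (0.059). It turned without HP 1, 2 and 4 for GPX4 (brighter, 0.18), SOD1 (0.15), SOD2 (0.052), PRDX2 (0.13), PRDX3 (0.0077) and PRDX6 (0.040), after quantile normalization for SOD1 (0.022), and for SOD3 without LP 2, LP 5 or HP 5 (-0.028 to 0.14 over all single pigs). CD79B turned to 0.025 with low values raised. The causes were not tested.

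Of the pathway genes 6 were lower, but 2 with the spike-in covariate, 3 without HP 1, 2 and 4, and 1 to 9 with single pigs left out. The 1 higher, MT3, became 3 after quantile normalization, 4 with the covariate (MT3 not among them), 3 without dim probe sets (which leaves MT3 out), 3 with low values raised, 4 with the trended prior, 3 with array weights, 6 without HP 1, 2 and 4 (again not MT3), and 1 to 5 with single pigs left out. Of the marker genes 3 were lower, 5 with the trended prior, where DCN and FAP were added, and 2 to 5 with single pigs left out. The 0 higher became 1 with the covariate and without HP 1, 2 and 4, which was the endothelial marker ESAM. It also became 1 with low values raised and with the trended prior, which was LEP, and 0 to 1 with single pigs left out. The share of all probe sets called, both directions together, moved as well. It was 5.11% in the main fit, 6.10% after quantile normalization and 6.85% with the covariate. With array weights it was 6.66%, without HP 1, 2 and 4 7.85%, and with single pigs left out 4.44% to 6.34%. By gene, 3.16% were lower and 1.57% higher in the main fit.

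The labels do not say that pigs of the same replicate number belong together. Deviations of pigs of the same number from their diet means correlated at -0.15 to 0.09. This cannot show whether the numbers follow the weight blocks, which are not given per pig. With the replicate block, GPX3 was at -0.70 and still called, the antioxidant count stayed at 1, and the count of pathway genes higher in LP was 0. SELENOP, GSTA4, SLC1A1, MT3 and CA3 did not pass with it. Leaving out dim probe sets removed SOD3 and the dimmer GPX4 probe set, which gave no value there.

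With 5 and 6 pigs, the intervals of the bright antioxidant probe sets reached 0.33 to 0.39 to either side of the difference. Levels near background, as in the dimmer GPX4 probe set, DIO2 and MT3, are the least certain.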

Other observations

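GPX2, the glutathione peroxidase of the gut epithelium, was highest on HP 2 at 11.86, the array on which GPX1 was lowest, and lay between 7.78 and 10.06 on the other 10 arrays. Its LP minus HP difference was -0.53 (SE 0.62, limma p = 0.413, exact permutation p = 0.483). The relation of the 2 values was not tested.

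Just outside the threshold stood 2 genes that were higher in LP. NQO1, a quinone reductase and a classic target of NRF2, read 11.53, 11.13, 11.58, 11.63 and 11.61 in LP pigs, against 11.27, 11.16, 11.01, 11.46, 11.14 and 11.28 in HP pigs, so that 4 of the 5 LP pigs were above every HP pig. Its difference was 0.28 (SE 0.13, limma p = 0.0555, exact permutation p = 0.0368). MSRB1, a selenoprotein that repairs oxidised methionine, averaged 10.06 ± 0.16 in LP and 9.70 ± 0.32 in HP pigs (SD), a difference of 0.36 (SE 0.17, limma p = 0.0527, exact permutation p = 0.0563). After quantile normalization both passed in limma, NQO1 at 0.34 and MSRB1 at 0.38. Both also passed with the spike-in covariate (NQO1 0.35, MSRB1 0.49), without dim probe sets, with low values raised and with the trended prior. With array weights and without HP 1, 2 and 4 only MSRB1 passed, and with the replicate block neither did. Of the fits with a single pig left out, NQO1 passed only without LP 2 or HP 4, and MSRB1 only without LP 1, HP 2 or HP 4. Both genes were picked after their values were seen.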
